A study of Homo sapiens with 20 samples.

Results

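The genes described here are 10 protein-coding neighbors of POLR1D in the 13q12 region of chromosome 13, a region that is recurrently amplified in colorectal cancer. They are CDK8, WASF3, USP12, RASL11A, MTIF3, LNX2, CDX2, PAN3, POMP and SLC46A3. They were chosen by name and position, not by a measured value, although earlier results of these data were known. Not every gene of the stretch was included. The libraries each listed 36346 gene names, after rows sharing a name were summed. RNA-seq was available for 20 libraries of HT29 and SW480, established human colorectal cancer cell lines, all harvested 72 h after transient transfection. HT29 was measured as 4 libraries with the scrambled control siRNA (SCR), 2 with siPOLR1D2 and 2 with siPOLR1D3. SW480 was measured as 6 libraries with SCR, 3 with siPOLR1D2 and 3 with siPOLR1D3. Both siRNAs target POLR1D, a subunit shared by RNA polymerases I and III. According to the study's description, HT29 carries a focal amplification of the region, whereas SW480 has gained the whole chromosome. No copy number was measured in these libraries. The labels do not say whether the libraries of a group came from separate cultures, so that every p value measures the spread between these libraries, which may be technical.

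A copy number gain adds templates for all genes of a segment at once, and the genes of an amplicon therefore often show raised RNA levels together. The rise is seen mainly for genes whose promoters are active in the given cells, whereas tissue-restricted genes can remain silent despite extra copies. An siRNA acts on the transcript of its target in the cytoplasm and leaves the gene and its neighbors intact. The comparisons below therefore address whether the neighbors of POLR1D differ in level between cell lines in which the region was gained in different ways, and whether they changed when POLR1D was silenced.

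All positions are those of GRCh38 (GENCODE 29) on chromosome 13. CDK8, the kinase of the Mediator kinase module, lies at 26254104 to 26405238 on the plus strand. WASF3, a WAVE family regulator of actin assembly, lies at 26557703 to 26688948 on the plus strand. USP12, a deubiquitinase, lies at 27066142 to 27171896 on the minus strand. RASL11A, a small RAS-like GTPase that has been linked to transcription of ribosomal DNA, lies at 27270327 to 27273690 on the plus strand. MTIF3, a mitochondrial translation initiation factor, lies at 27435643 to 27450591 on the minus strand. LNX2, a PDZ domain ubiquitin ligase of the Numb pathway, lies at 27545911 to 27620404 on the minus strand, directly before POLR1D at 27620742 to 27744237 on the plus strand. CDX2, the homeobox factor that defines intestinal epithelium, lies at 27962137 to 27971139 on the minus strand. PAN3, the regulatory subunit of the PAN2 poly(A) nuclease, lies at 28138506 to 28295335 on the plus strand. POMP, a chaperone of proteasome assembly, lies at 28659104 to 28678925 on the plus strand. SLC46A3, a lysosomal transporter, lies at 28700064 to 28718970 on the minus strand. The start sites thus reached from 1.37 Mb before to 1.10 Mb after that of POLR1D. Some members share sequence with other annotated genes, as MTIF3 overlaps GTF3A on the opposite strand, USP12 overlaps USP12-AS1, WASF3 overlaps WASF3-AS1, AL159978.1 and the pseudogene RPS3AP44, and PAN3 overlaps the pseudogene EEF1A1P3. Whether strand was used in the quantification is not given in the sources used here, so that these values may include reads of the overlapping genes.

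LNX2 and POLR1D are transcribed away from each other, with start sites 338 bases apart in GENCODE 29 and 214 bases apart in RefSeq. The RefSeq promoter windows of GRCh38.p14, reaching from 250 bases before to 50 bases after each start, shared 287 bases (chr13:27620493-27620779), read on opposite strands. The windows of this pair are shown because silencing lowered the transcript of POLR1D while LNX2 starts from the same stretch of DNA. POLR1D spans chr13:27620493-27620792 on the plus strand and LNX2 spans chr13:27620480-27620779 on the minus strand, each 5′ to 3′. Capitals mark CCAAT on either strand (ATTGG on the other), which each window held at 1 position, the same bases read from both sides. RefSeq lists a second POLR1D start, whose window (chr13:27621642-27621941) held no CCAAT and did not overlap that of LNX2. This pentamer was found in 34.6% of the 35116 RefSeq windows of this length.
POLR1D: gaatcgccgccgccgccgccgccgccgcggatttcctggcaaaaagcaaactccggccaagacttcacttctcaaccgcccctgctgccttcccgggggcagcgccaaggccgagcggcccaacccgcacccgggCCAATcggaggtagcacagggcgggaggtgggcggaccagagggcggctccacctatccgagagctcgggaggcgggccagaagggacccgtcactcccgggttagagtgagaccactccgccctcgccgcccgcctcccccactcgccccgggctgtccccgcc
LNX2: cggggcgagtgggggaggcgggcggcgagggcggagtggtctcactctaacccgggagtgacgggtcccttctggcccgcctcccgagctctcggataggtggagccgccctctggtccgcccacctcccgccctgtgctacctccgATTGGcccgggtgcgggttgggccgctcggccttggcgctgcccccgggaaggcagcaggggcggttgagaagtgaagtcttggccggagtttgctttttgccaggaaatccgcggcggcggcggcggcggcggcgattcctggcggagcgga

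WASF3 and CDX2 are shown as the members that were present in SW480 and close to 0 in HT29. The window of WASF3 spans chr13:26557433-26557732 on the plus strand and that of CDX2 spans chr13:27969266-27969565 on the minus strand, each 5′ to 3′, and capitals mark the dinucleotide CG. WASF3 held 36 CG dinucleotides, more than 87.3% of all windows, and the window of a second RefSeq start of this gene, overlapping this window, held 40. CDX2 held 16 of them at a GC content of 50.3%. The median over all windows was 14 CG dinucleotides and a GC content of 58.7%. The members that differed most between the cell lines thus had windows of unlike base composition, and no methylation was measured.
WASF3: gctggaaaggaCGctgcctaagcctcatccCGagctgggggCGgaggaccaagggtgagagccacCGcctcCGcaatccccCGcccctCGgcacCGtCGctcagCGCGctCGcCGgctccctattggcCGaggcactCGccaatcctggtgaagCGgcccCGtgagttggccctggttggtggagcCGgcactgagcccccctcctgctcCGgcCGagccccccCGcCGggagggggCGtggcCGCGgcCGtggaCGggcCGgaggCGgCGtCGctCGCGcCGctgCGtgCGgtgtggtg
CDX2: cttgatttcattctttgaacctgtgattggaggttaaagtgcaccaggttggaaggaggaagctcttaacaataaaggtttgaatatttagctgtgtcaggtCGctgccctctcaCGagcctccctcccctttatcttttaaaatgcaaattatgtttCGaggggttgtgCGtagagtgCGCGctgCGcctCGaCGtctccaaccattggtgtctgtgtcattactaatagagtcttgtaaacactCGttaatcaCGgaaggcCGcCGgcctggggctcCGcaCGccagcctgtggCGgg

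The values are normalized DESeq2 read counts, which the authors scaled within each cell line, and the number of reads behind a single gene is unknown. Epithelial markers (EPCAM, KRT8, KRT18, KRT20, CDH1 and VIL1) summed to between 131757 and 259713 per library over both cell lines, although KRT20 was at or below 11.2 in the SCR libraries of SW480. Leukocyte markers summed to at most 44.2 and endothelial markers to at most 143 per library. Fibroblast markers summed to at most 71.4 in HT29 and 730 in SW480, mostly COL1A1. The SW480 libraries fell on either side of the first principal component of all genes, which held 42.0% of the variance. SCR replicates 1, 2 and 3 and siPOLR1D2 replicates 1 and 2 lay on side 1, and all other SW480 libraries, including all 3 with siPOLR1D3, lay on side 2. SCR replicate 1 lay nearest to the middle, at -14.1, against -71.5 and -71.4 for SCR replicates 2 and 3 and 21.8 for SCR replicate 6. Results that use the side count it as side 1. The labels give no batch that would account for this split, and most calls in SW480 are therefore also given with the side taken into account. In HT29, SCR replicate 1 stood apart on a component with 43.3% of the variance.

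POLR1D itself was lowered by both siRNAs. In HT29, its normalized read counts were 6036, 4711, 4433 and 5010 in SCR, 3414 and 3492 with siPOLR1D2, and 2858 and 2550 with siPOLR1D3. In SW480, the 6 SCR libraries ranged from 1829 to 2599 with a median of 2030, and the 6 silenced libraries ranged from 843 to 1336 with a median of 976. All silenced libraries were below all SCR libraries in both cell lines. In bulk RNA, fewer cells expressing a gene and less RNA per cell cannot be told apart. Silencing lowered the level by a log2 change of -1.04 (SE 0.13, adjusted p = 0.000991, limma) in SW480. In HT29, the change was -0.72 on the log2 scale (SE 0.14, adjusted p = 0.355, limma), which did not pass the threshold of 0.05, with an exact permutation p = 0.0286, the smallest that 4 libraries against 4 allow. The study, which used DESeq2, counted POLR1D as differentially expressed in HT29 too, a call that the limma fit did not reach.

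The SCR libraries were then compared between the cell lines after rescaling all 20 libraries jointly with median-of-ratios size factors, as the authors had normalized each cell line alone. Of the 10 members, 5 were higher in HT29 (USP12, MTIF3, LNX2, PAN3 and POMP), 2 were lower in HT29 (WASF3 and CDX2), and CDK8, RASL11A and SLC46A3 were not called. The background was high, as 55.3% of the 15064 genes tested differed between the cell lines, 24.5% being higher and 30.8% lower in HT29. The members' median log2 difference (HT29 minus SW480) was 0.92, against -0.07 over all genes tested. Copy number, growth medium and all other differences between the cell lines cannot be told apart in this comparison. POLR1D was 5750 ± 836 (SD, n = 4) in HT29 and 1902 ± 250 (SD, n = 6) in SW480, a log2 difference of 1.59 (SE 0.13, adjusted p = 7.96e-07, limma).

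**Figure D1:**
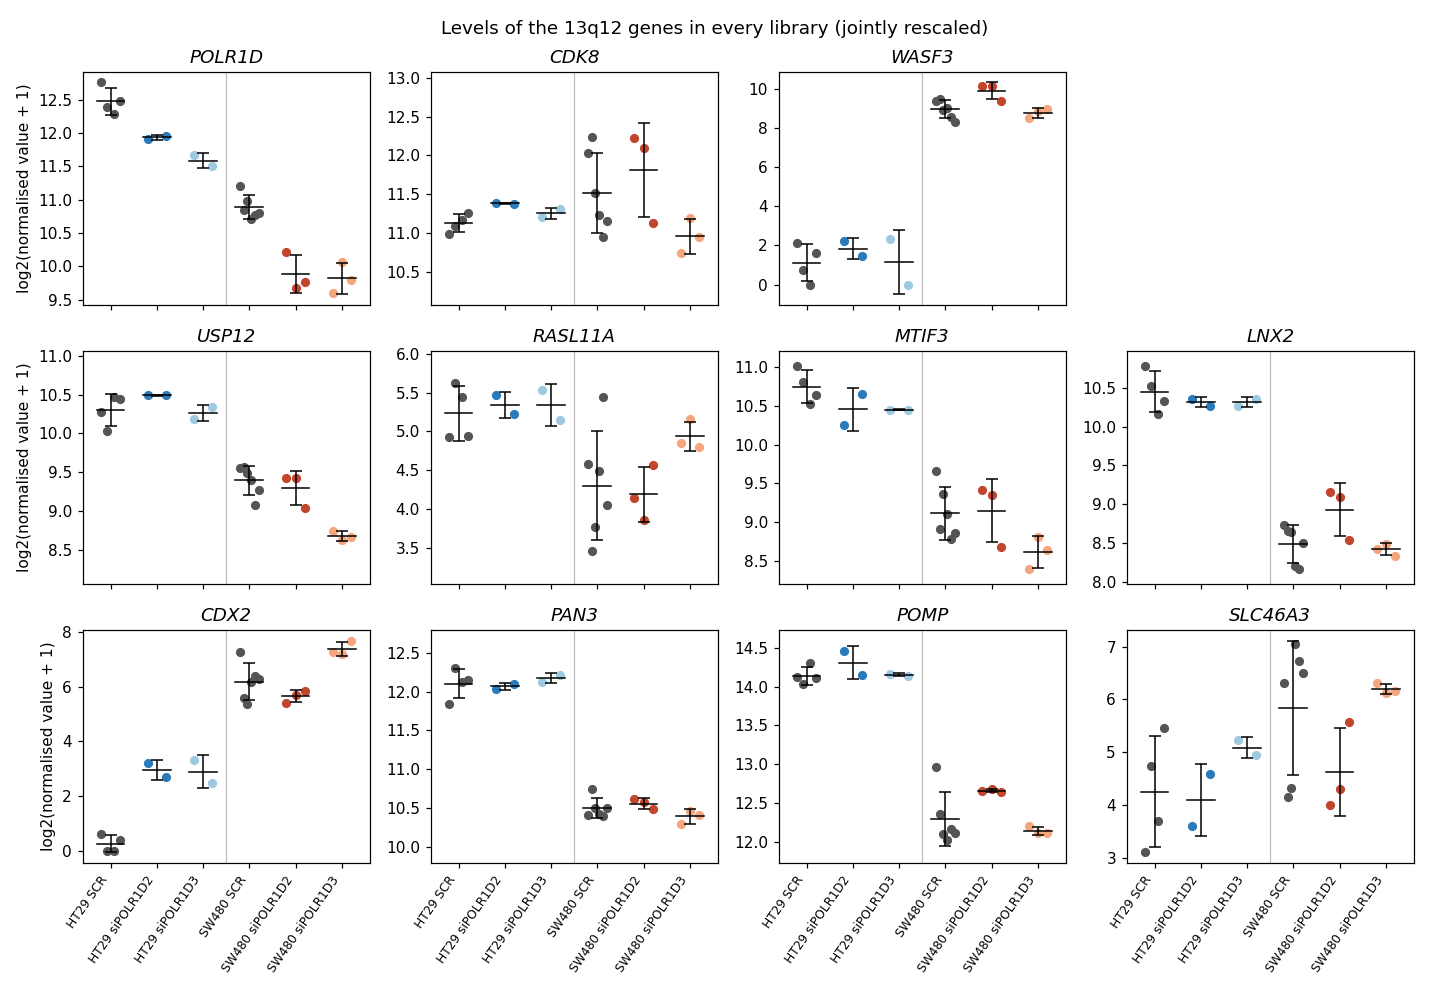
Jointly rescaled level of POLR1D and its 10 neighbors in every library. Each panel shows log2(normalized value + 1) on the y axis and the 6 groups on the x axis, with a y range of its own, a point per library, the mean as a horizontal line and the SD as an error bar. MTIF3, LNX2, PAN3 and POMP sit about as far apart between the cell lines as POLR1D, whereas WASF3 and CDX2 are near 0 in HT29 SCR libraries.

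Among the 5 members higher in HT29, LNX2 differed most. Its jointly rescaled levels were 1757, 1474, 1150 and 1285 in the HT29 SCR libraries and ranged from 287 to 423 with a median of 380 in the 6 SW480 SCR libraries. The log2 difference was 1.97 (SE 0.16, adjusted p = 1.02e-06, limma), a 3.91-fold higher level in HT29. The lowest HT29 library was thus far above the highest SW480 library.

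POMP, which helps to assemble the catalytic core of the proteasome, ranged from 16701 to 20222 in HT29 and from 4172 to 7997 in SW480, with a log2 difference of 1.85 (SE 0.17, adjusted p = 2.71e-06, limma). MTIF3 ranged from 1469 to 2066 in HT29 and from 438 to 807 in SW480, with a log2 difference of 1.63 (SE 0.18, adjusted p = 1.23e-05, limma). PAN3, which acts in poly(A) tail shortening, ranged from 3660 to 5033 in HT29 and from 1343 to 1706 in SW480, with a log2 difference of 1.61 (SE 0.12, adjusted p = 3.15e-07, limma). These 3 genes and LNX2 lie on either side of POLR1D, and their 95% intervals all overlap that of POLR1D, which reached from 1.31 to 1.88. USP12 ranged from 1041 to 1412 in HT29 and from 537 to 755 in SW480. Its log2 difference of 0.91 (SE 0.14, adjusted p = 0.000143, limma) had an interval of 0.61 to 1.21, which lies below that of POLR1D. No test of a difference between genes was run. In all 5 genes the lowest HT29 library was above the highest SW480 library (exact permutation test, 2-sided, p = 0.00476 each, the smallest that 4 libraries against 6 allow), as in 19.3% of all genes tested.

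WASF3 and CDX2 went the other way. WASF3 was 3.41, 0.688, 0 and 2.03 in the HT29 SCR libraries on the joint scale and between 319 and 714 in those of SW480. CDX2 was 0.533, 0, 0 and 0.320 in HT29 and between 40.2 and 153 in SW480. In both genes all HT29 libraries lay below all SW480 libraries, as in 23.9% of all genes tested. On the log2(value + 1) scale the difference was -7.83 for WASF3 (SE 0.41, adjusted p = 2.16e-08, limma) and -5.92 for CDX2 (SE 0.40, adjusted p = 1.84e-07, limma). Both genes passed the filter on low values only through the SW480 libraries, where they are high, and their tests are given as a description. As the HT29 levels are close to 0, the size depends on the pseudocount. With pseudocounts of 0.1 and 5, it was -9.14 and -6.28 for WASF3 and -8.29 and -3.88 for CDX2. The study describes CDX2 as expressed in both cell lines and reports its knockdown in HT29 by RT-PCR. The reason for the difference from these RNA-seq values was not tested.

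The remaining members could not be separated between the cell lines. CDK8 was 2237 ± 181 (SD, n = 4) in HT29 and 3098 ± 1150 (SD, n = 6) in SW480, with a log2 difference of -0.39 (95% interval -0.90 to 0.11, adjusted p = 0.173, limma). The SW480 values were wide, since 4201, 4815 and 2918 were reached by SCR replicates 1 to 3 and 2394, 1972 and 2287 by replicates 4 to 6, which lie on the other side of the principal component. RASL11A was low in both cell lines, 37.5 ± 9.44 (SD, n = 4) in HT29 and 20.8 ± 11.7 (SD, n = 6) in SW480, with a log2 difference of 0.94 (95% interval 0.08 to 1.79, adjusted p = 0.0605, limma). SLC46A3 was 22.0 ± 15.8 (SD, n = 4) in HT29 and 73.4 ± 46.5 (SD, n = 6) in SW480, with a log2 difference of -1.59 (95% interval -3.05 to -0.14, adjusted p = 0.0599, limma). RASL11A and SLC46A3 lay near the threshold, and their calls changed with several settings. RASL11A was called without SW480 SCR replicate 5 (log2 difference 1.17, adjusted p = 0.0155, limma), after quantile normalization (1.85, adjusted p = 0.00226), without a variance trend (adjusted p = 0.046) and with all 20 libraries in 1 fit (adjusted p = 0.0191). SLC46A3 was called with the values as deposited (-1.92, adjusted p = 0.0248), with all 20 libraries in 1 fit (adjusted p = 0.0231), and without HT29 SCR replicate 4 (adjusted p = 0.0344), SW480 SCR replicate 2 (-1.93, adjusted p = 0.0204) or SW480 SCR replicate 3 (-1.90, adjusted p = 0.0265), each from limma.

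The other genes of the minimal amplified region were hardly expressed. GSX1, a homeobox gene of the nervous system, was at most 2.31 in any library as deposited. URAD was at 0 in all 20 libraries. FLT3, a receptor tyrosine kinase of blood progenitors, was at most 2.00, and the pseudogene ATP5F1EP2 was at most 1.57. PDX1, a homeobox factor of pancreas and duodenum, reached 4.48 in HT29 and 22.4 in SW480, whereas the study describes it as expressed in both cell lines.

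Along chromosome 13, the median difference between the cell lines was larger close to POLR1D than farther away. Of the 253 genes tested on the chromosome, the 12 within 1 Mb of the POLR1D start had a median log2 difference of 1.27. The 34 genes at 1 to 5 Mb had a median of 0.82 and the 207 genes beyond 5 Mb had a median of 0.27. Without the members and POLR1D, the median was 1.13 over the 5 other genes within 1 Mb (2 called higher in HT29 and 2 lower) and 0.89 over the 30 other genes at 1 to 5 Mb. The spread was wide, with an interquartile range at 1 to 5 Mb from -1.95 to 1.48. Split at a mean SCR level of 500, chosen after the values were seen, only the genes at or above it followed this order. Their medians were 1.59 within 1 Mb, 1.30 at 1 to 5 Mb and 0.65 beyond 5 Mb. Genes under that level had medians of -1.92, -3.13 and 0.03. Chromosome 13 as a whole had a median of 0.31, and chromosomes 11 (0.31) and 15 (0.42) had medians of that size as well. Neighboring genes share their segment and are not independent, so that no test was run.

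**Figure D2:**
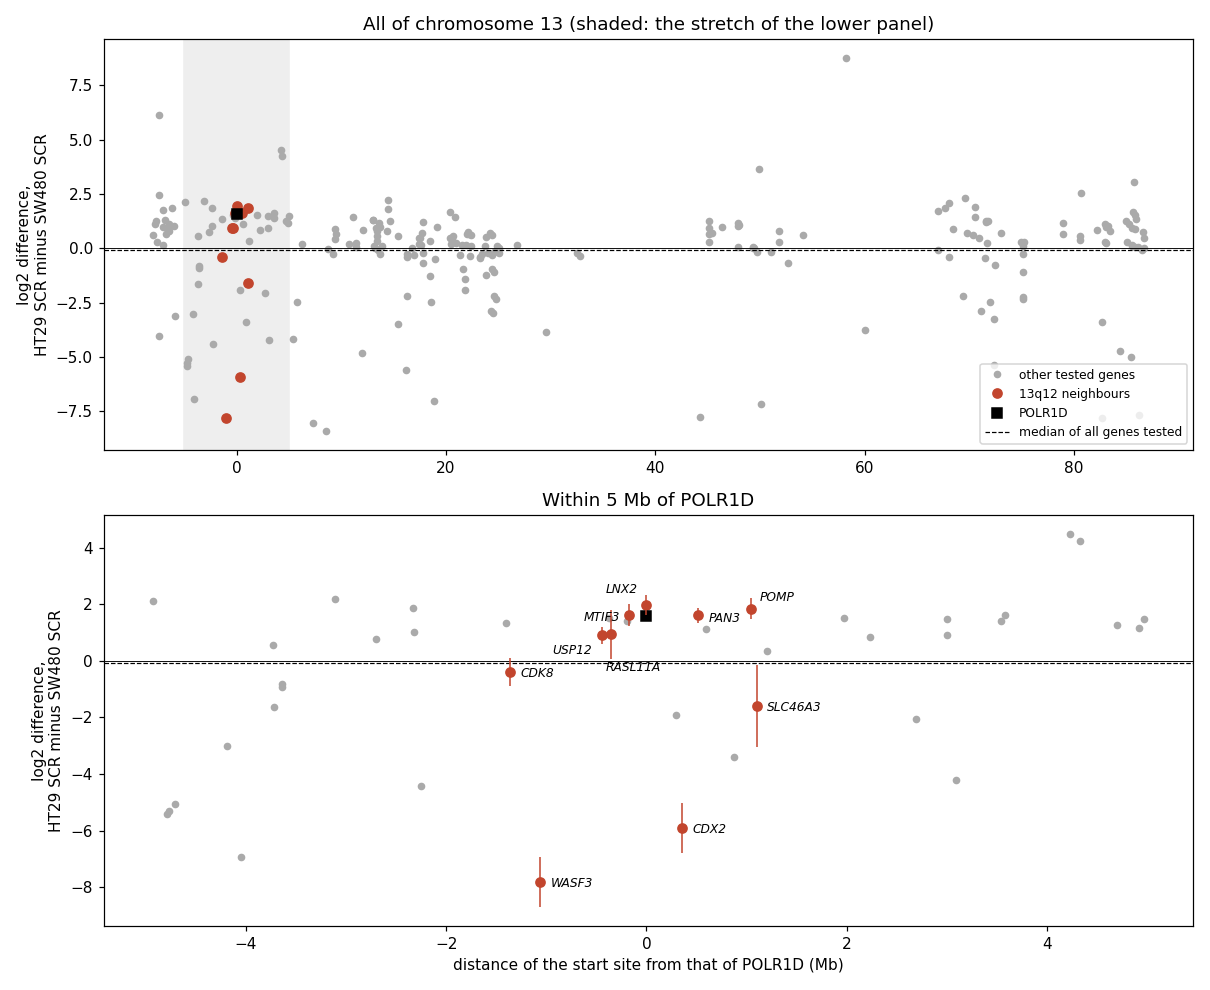
Log2 difference between HT29 SCR and SW480 SCR (y axis, HT29 minus SW480) of all 253 genes tested on chromosome 13, against the distance of their start from that of POLR1D in Mb (x axis). The upper panel shows the chromosome and the lower panel the 5 Mb on either side, with the 10 neighbors in red with 95% intervals, POLR1D as a black square and the median of all genes tested (-0.07) as a dashed line. USP12, RASL11A, MTIF3, LNX2, PAN3 and POMP form a band between 0.91 and 1.97, with CDK8, SLC46A3, CDX2 and WASF3 below it.

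The second comparison concerned the response to POLR1D silencing, with both siRNAs pooled. No neighbor was called in either cell line. In HT29, 8 members passed the filter on low values and 0 were called, against 0% of the 13274 genes tested. As POLR1D itself was not called in HT29, a missing call in that cell line does not show that a neighbor was unchanged. At an unadjusted p under 0.05 there were 0 members, against 10.7% of all genes. In SW480, all 10 members were tested and 0 were called, against 6.73% of the 15019 genes tested. USP12 was the sole member at an unadjusted p under 0.05 in SW480, against 23.2% of all genes. The members' median log2 fold change was 0.08 in HT29 and 0.04 in SW480, against 0.00 and 0.01 over all genes tested. No member was called in any of the alternative settings run for the pooled siRNAs in either cell line.

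LNX2, whose start lies in the same window as that of POLR1D, was 1532, 1296, 1021 and 1125 in HT29 SCR libraries as deposited and 1164, 1082, 1084 and 1147 in the silenced ones. In SW480 it ranged from 317 to 467 with a median of 425 in SCR and from 354 to 639 with a median of 403 after silencing. The groups overlapped in both cell lines. The log2 fold change was -0.14 (95% interval -0.44 to 0.16, adjusted p = 0.7004) in HT29 and 0.18 (95% interval -0.20 to 0.56, adjusted p = 0.581) in SW480, both from limma. The intervals of POLR1D itself were -1.03 to -0.40 in HT29 and -1.31 to -0.77 in SW480, so that those of the 2 genes were apart in SW480 and met at their ends in HT29.

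PAN3 and POMP overlapped between silenced and SCR libraries in both cell lines. For PAN3 the log2 fold change was 0.02 (95% interval -0.24 to 0.28) in HT29 and -0.03 (95% interval -0.23 to 0.17) in SW480. For POMP it was 0.09 (95% interval -0.17 to 0.35) in HT29 and 0.10 (95% interval -0.26 to 0.47) in SW480, neither past the threshold. Wider intervals were found for SLC46A3 and RASL11A, whose values in HT29 were at most 42.4. That of SLC46A3 was -0.90 to 1.58 in HT29 and -1.68 to 0.81 in SW480, and that of RASL11A was -0.48 to 0.70 in HT29 and -0.50 to 1.02 in SW480. In SW480, the intervals of WASF3 and CDX2 were wide as well. The log2 fold change was 0.38 (95% interval -0.27 to 1.02) for WASF3 and 0.34 (95% interval -0.58 to 1.25) for CDX2, neither past the threshold.

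MTIF3 had a log2 change of -0.29 (SE 0.13, adjusted p = 0.469, limma) in HT29 and -0.24 (SE 0.20, adjusted p = 0.522, limma) in SW480. CDK8 had one of 0.19 (SE 0.10, adjusted p = 0.507, limma) in HT29 and -0.14 (95% interval -0.77 to 0.49, adjusted p = 0.818, limma) in SW480. In SW480, the CDK8 level followed the side of the principal component, being 3304 to 5452 in the 5 libraries of side 1 and 1867 to 2625 in the 7 libraries of side 2. The silenced SW480 libraries of side 1, both with siPOLR1D2, had 5378 and 4895, within the range of the SCR libraries of that side.

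CDX2 was below the filter in HT29 and is therefore given by its levels. It was 0.465, 0, 0 and 0.281 in SCR libraries as deposited, 7.28 and 4.76 with siPOLR1D2, and 7.91 and 3.96 with siPOLR1D3. All 4 silenced libraries were above all 4 SCR libraries (exact permutation test, 2-sided, p = 0.0286, the smallest that 4 libraries against 4 allow). Among the genes that passed the filter in HT29 this held for 2.72%, a share that does not cover genes as low as CDX2. All CDX2 values in HT29 are below 10, where the number of reads behind a value is unknown, and no fold is given. WASF3 stayed between 0 and 3.48 in all 8 HT29 libraries.

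The difference of the silencing effect between HT29 and SW480 was tested with an interaction term over all 20 libraries. No member was called, against 5 of the 16145 genes tested (0.031%), and 1 member, CDX2, had an unadjusted p under 0.05, against 8.33% of all genes. CDX2 passed the filter of this test only through the SW480 libraries. The largest difference was that of CDX2, whose effect in SW480 minus that in HT29 was -2.32 on the log2(value + 1) scale (SE 0.63, adjusted p = 0.225, limma). With a pseudocount of 0.1 it was -4.52 with an adjusted p of 0.0286 from limma, and with a pseudocount of 5 it was -0.83 with an adjusted p of 0.741. For USP12 it was -0.48 (SE 0.23, adjusted p = 0.601, limma).

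The siRNAs were then compared with SCR one at a time, in a fit that shares the SCR libraries between both. In HT29, 0 of 8 members were called with either siRNA, against 0% of all genes tested with each. At an unadjusted p under 0.05 there were 0 members with either siRNA, against 4.36% of all genes with siPOLR1D2 and 7.77% with siPOLR1D3. The members' log2 fold changes were between -0.28 and 0.26 with siPOLR1D2 and between -0.30 and 0.83 with siPOLR1D3, the last being SLC46A3 (SE 0.66). In SW480, 1 of 10 members was called with each siRNA, against 8.16% of all genes with siPOLR1D2 (3.16% higher) and 6.6% with siPOLR1D3 (4.45% lower). The member called was WASF3 with siPOLR1D2, which rose, and USP12 with siPOLR1D3, which fell, while POLR1D fell by 0.99 and 1.09 on the log2 scale with the respective siRNA. At an unadjusted p under 0.05 (limma) there were 3 members with each siRNA, against 25% of all genes with each.

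USP12 was 468, 432 and 446 with siPOLR1D3 in SW480. The SCR libraries were 832, 855, 816, 740, 594 and 681, and those with siPOLR1D2 were 772, 768 and 587. The siPOLR1D3 libraries were thus below all others, and groups were apart in this direction in 10.9% of all genes tested. The log2 fold change with siPOLR1D3 was -0.73 (SE 0.14, adjusted p = 0.0113, limma), whereas it was -0.09 (95% interval -0.39 to 0.22, adjusted p = 0.753, limma) with siPOLR1D2. The exact permutation test gave p = 0.0119 for siPOLR1D3, the smallest that 3 libraries against 6 allow. Against the 3 SCR libraries of the same side alone, a setting with more genes called than the main one, the log2 fold change was -0.58 (adjusted p = 0.00668, limma). Leaving out siPOLR1D3 replicate 1, 2 or 3 moved the adjusted p to 0.0604, 0.0628 and 0.0611 with log2 fold changes between -0.76 and -0.71.

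WASF3 was 1278, 1245 and 746 with siPOLR1D2 in SW480, 392, 507 and 558 with siPOLR1D3, and between 353 and 809 with a median of 559 in SCR. The first 2 siPOLR1D2 libraries were above all SCR libraries and the third was within their range. The log2 fold change with siPOLR1D2 was 0.95 (SE 0.26, adjusted p = 0.0449, limma; exact permutation p = 0.0476). With siPOLR1D3 it was -0.19 (95% interval -0.76 to 0.38). The high libraries lay on side 1, and against the SCR libraries of that side alone the log2 fold change was 0.87 (adjusted p = 0.302, limma), with 0 genes called in all. With the side as a covariate, a setting with more genes called than the main one, it was 0.83 (adjusted p = 0.00811, limma). The call was lost without SCR replicate 3, 4, 5 or 6, without siPOLR1D2 replicate 1 or 2 and without any of the siPOLR1D3 libraries, with adjusted p values between 0.058 and 0.178, and it was kept without the other 3 libraries.

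CDX2 was 168, 161 and 224 with siPOLR1D3 in SW480. It was 46.5, 56.1 and 63.4 with siPOLR1D2 and 169, 53.2, 45.5, 78.4, 91.6 and 83.7 in SCR. The siPOLR1D3 libraries were above 5 of the 6 SCR libraries, and SCR replicate 1 was as high as they were. The change was 1.19 on the log2 scale (SE 0.34, adjusted p = 0.0553, limma) with siPOLR1D3 and -0.52 (SE 0.34, adjusted p = 0.375, limma) with siPOLR1D2. Without SCR replicate 1, the value for siPOLR1D3 was 1.41 (adjusted p = 0.0104, limma). Against the SCR libraries of side 2 alone, a setting with more genes called than the main one, it was 1.11 (adjusted p = 0.00246, limma). It was not called with the side as a covariate (1.09, adjusted p = 0.109) or without any of the other 11 libraries (adjusted p 0.056 to 0.218).

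**Figure D3:**
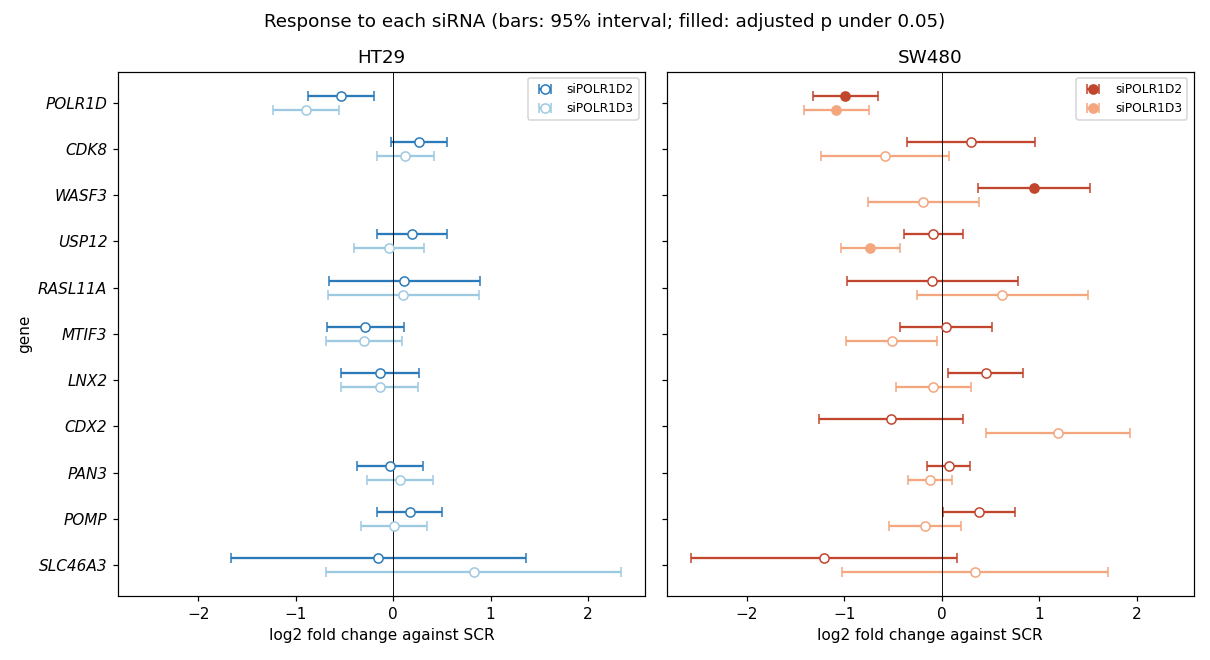
Log2 fold change against SCR (x axis) of POLR1D and its neighbors (y axis) for siPOLR1D2 (dark) and siPOLR1D3 (light), in HT29 on the left and SW480 on the right. Bars are 95% intervals and filled points passed an adjusted p of 0.05. WASF3 and CDX2 were below the filter in HT29. POLR1D is the lowest point with both siRNAs in HT29 and is filled in SW480, where WASF3 (0.95, siPOLR1D2) and USP12 (-0.73, siPOLR1D3) are the other filled points.

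The difference between the siRNAs was tested directly. In SW480, 2 of 10 members differed, against 3.32% of all genes tested (1.62% higher and 1.69% lower with siPOLR1D3). At an unadjusted p under 0.05 (limma) there were 7 members, against 21.8% of all genes. CDX2 was higher with siPOLR1D3 than with siPOLR1D2 by a log2 difference of 1.72 (SE 0.39, adjusted p = 0.0387, limma). USP12 was lower by -0.65 (SE 0.16, adjusted p = 0.0493, limma). WASF3 differed by -1.14 (SE 0.30, adjusted p = 0.0599, limma), which did not pass the threshold. In a fit of the libraries of these siRNAs alone, WASF3 (adjusted p = 0.0328) and POMP (-0.55, adjusted p = 0.0207) were called as well. The libraries of both siRNAs are unevenly placed, as 2 of 3 with siPOLR1D2 and 0 of 3 with siPOLR1D3 lay on side 1. With the side as a covariate, the differences were 1.57 for CDX2 (adjusted p = 0.104) and -0.42 for USP12 (adjusted p = 0.131), and both calls were lost. The call for CDX2 was also lost without SCR replicate 5 or 6 or any siRNA library except siPOLR1D2 replicate 3 (adjusted p 0.052 to 0.145), and that for USP12 without SCR replicate 4 or 6 or any siRNA library except siPOLR1D2 replicate 3 (adjusted p 0.0625 to 0.175). In HT29, 0 of 8 members differed between the siRNAs, against 0% of all genes tested. At an unadjusted p under 0.05 there were 0 members, against 1.56% of all genes.

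**Figure D4:**
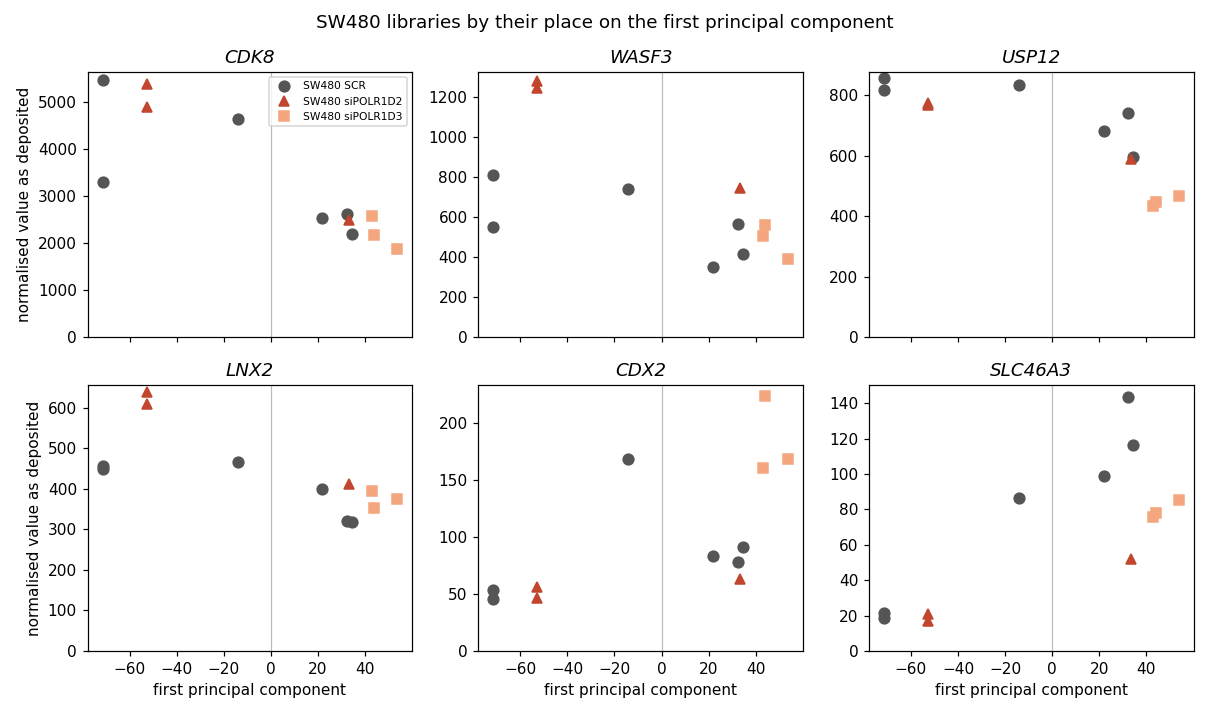
Normalized value as deposited (y axis, from 0) of 6 neighbors in the 12 SW480 libraries against their place on the first principal component of all genes (x axis, side 1 left of 0). Circles are SCR, triangles siPOLR1D2 and squares siPOLR1D3. CDK8 is at 3304 or above in the 5 libraries on the left and at 2625 or below in the 7 on the right, USP12 is lowest in the siPOLR1D3 libraries, and SLC46A3 is at 52.1 or above in all 7 libraries on the right.

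LNX2 and POMP showed smaller values of the same kind in SW480. With siPOLR1D2, LNX2 was 639, 609 and 413, with a log2 change of 0.45 (SE 0.18, adjusted p = 0.135, limma). POMP was 7262, 7348 and 7115 with siPOLR1D2, with a log2 change of 0.38 (SE 0.17, adjusted p = 0.189, limma), and SCR replicate 1 was higher than these at 8826. Without that library the change was 0.51 (adjusted p = 0.00622, limma), while leaving out any other library gave adjusted p values from 0.178 to 0.346. LNX2 was called with the side as a covariate (0.37, adjusted p = 0.0463, limma), a setting with more genes called than the main one. SLC46A3 ranged widely, from 16.8 to 52.1 with siPOLR1D2, from 75.5 to 85.4 with siPOLR1D3 and from 18.8 to 144 in SCR. Its low values were found in SCR replicates 2 and 3 and in siPOLR1D2 replicates 1 and 2, all of side 1. Its siPOLR1D3 libraries, all of side 2, were below the SCR libraries of that side, which ranged from 99.1 to 144. The comparison within side 2 was chosen after seeing the data, and the share of all genes apart in this way is not given. There the log2 change of SLC46A3 was -0.57 and was not called, in a setting with 3059 genes called. Against all SCR libraries, its log2 change with siPOLR1D3 was 0.34 (SE 0.63, adjusted p = 0.767, limma).

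Partners and relatives of the members were taken from a list of 36 genes. In SW480, 30 of them were tested after silencing, and 3 were higher and 2 lower, against 2.44% and 4.29% of all genes. RASL11B, a paralog of RASL11A, rose from a mean of 104 (SD 24.0) to one of 237 (lowest 130, highest 304, n = 6 each), a log2 change of 1.17 (SE 0.22, adjusted p = 0.0104, limma). It was called with siPOLR1D2 (0.93, adjusted p = 0.0422) and with siPOLR1D3 (1.41, adjusted p = 0.00889) alike, whereas RASL11A had 0.26 (95% interval -0.50 to 1.02) with both siRNAs pooled. With the side as a covariate, a setting with more genes called than the main one, it was 1.15 (adjusted p = 0.00557, limma). The other 4 are named after their values were seen. They were CYFIP2 (1.17, adjusted p = 0.0133) and WASF1 (0.50, adjusted p = 0.0286) of the WAVE complex, CCNC (-0.46, adjusted p = 0.0395), the cyclin partner of CDK8, and PSMG4 (-0.55, adjusted p = 0.0399), a proteasome assembly chaperone, each from limma. All 4 were called with the side as a covariate (adjusted p 0.00716 to 0.027, limma), but the side was taken from these same libraries, silenced ones included. Within side 2 alone, RASL11B was called (adjusted p = 0.0369) and these 4 were not (adjusted p 0.0537 to 0.129), and within side 1, with 3 SCR and 2 silenced libraries, 0 genes were called. In HT29, 0 of 29 tested partners were called. Outside the members and POLR1D, 5 genes within 1 Mb and 31 at 1 to 5 Mb were tested in SW480 silencing. SLC7A1, a cationic amino acid transporter, was the 1 gene called among them, against 6.73% of all genes, with a log2 change of -0.62 (SE 0.16, adjusted p = 0.0354, limma) and one of -0.69 (adjusted p = 0.430) in HT29. With the side as a covariate it was -0.56 in SW480 (adjusted p = 0.0128, limma). GTF3A, also named after its values were seen because it overlaps MTIF3, was called with siPOLR1D2 in SW480 (0.58, adjusted p = 0.0422, limma), as were 8.16% of all genes. MTIF3 had 0.04 there (95% interval -0.43 to 0.51). GTF3A was not called with siPOLR1D3 (0.22, adjusted p = 0.415), with both siRNAs pooled (0.40, adjusted p = 0.116) or in HT29 (0.08, adjusted p = 0.728), each from limma. No value with the side as a covariate is given for GTF3A.

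Between the cell lines, 31 partners were tested, and 9 were higher and 12 lower in HT29, against 24.5% and 30.8% of all genes. The list includes genes known to be activated by CDX2 in intestinal epithelium, and these did not all follow CDX2. CDH17, an intestinal cadherin, was lower in HT29 by a log2 difference of -5.39 (SE 0.48, adjusted p = 1.67e-06, limma), and GUCY2C, the guanylin receptor, by -3.17 (SE 0.48, adjusted p = 0.000139, limma). LGALS4, a galectin, was higher in HT29 by 9.51 (SE 0.59, adjusted p = 9.34e-08, limma), and MUC2, the secreted mucin of goblet cells, by 3.54 (SE 0.45, adjusted p = 3.44e-05, limma). LNX1, the paralog of LNX2 on another chromosome, was higher in HT29 by 2.16 (SE 0.21, adjusted p = 4.04e-06, limma). MTIF2, the other mitochondrial initiation factor, was lower by -1.06 (SE 0.16, adjusted p = 0.000106, limma), against 1.63 for MTIF3. CYFIP1, a WAVE complex subunit, was higher by 1.48 (SE 0.13, adjusted p = 1.68e-06, limma), and RASL11B was lower by -4.42 (SE 0.31, adjusted p = 2.43e-07, limma). CDH17, GUCY2C, LGALS4 and RASL11B passed the filter on low values only through the cell line in which they were higher. The size of their differences depends on the pseudocount.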

How the data were processed

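RNA from HT29 and SW480 cells was enriched for the coding transcriptome (TruSeq RNA Exome) and sequenced by the authors, who quantified it with kallisto 0.44.0 and checked it with FastQC 0.11.5, per the submitters' processing notes. The values the authors deposited are signal values per gene, read counts normalized with DESeq2 1.24.0 over the libraries of a cell line on hg38. They are not whole numbers, the kallisto annotation and the use of strand are not given in the sources used here, and depth per gene is unknown. Whole reads could not be recovered, as 21.6% to 50.5% of low values per library were whole multiples within a tolerance of 0.01. Deposited values summed to between 17619830 and 22958216 per library, and no 2 libraries were identical.

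Of 40117 deposited rows, those sharing a name were summed, giving 36346 gene names. Values were log2 transformed with a pseudocount of 1, so that fold changes of low genes are understated. A gene was tested if it reached a value of 10 in a number of libraries not below that of the smaller group. Tests used limma 3.58.1 (R 4.3.3) with a mean-variance trend, and p values were adjusted over all genes tested by the Benjamini-Hochberg method. An adjusted p under 0.05 was a call. Intervals cover 95% and use the moderated t quantile. Each cell line was fitted alone, and single members were also compared by 2-sided exact permutation tests of mean log2 values. For comparisons between the cell lines all libraries were rescaled with median-of-ratios factors, and the fit was tested on simulated data. The sides of the SW480 libraries are the sign of the first principal component. Same-numbered libraries were not treated as pairs. Alternatives varied the scaling, the pseudocount (0.1 and 5), the filter, the variance model, the replicate block, the side and the libraries included, and their effect is given in the closing section. Positions are from GENCODE 29 and promoter windows from RefSeq (GRCh38.p14, found for all 10 members).

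The members, partner list and tests were chosen with earlier results of these data known. The genes named are the members, POLR1D, the other genes of the minimal region, chromosome 13 genes within 5 Mb called in SW480 silencing, and the 8 partners with the smallest p. A further 4 partners, GTF3A and KRT20 were named after their values were seen.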

Additional observations from a re-analysis of the deposited data

Results flagged for a closer look

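Outliers were sought in 40 groups of 4 or 6 libraries, of which chance alone flags about 1 in 20, and 4 were found. In SW480 SCR, replicate 1 stood apart by its high level of CDX2 (169) and of POMP (8826), and replicate 2 by its high level of PAN3 (1932). In the pooled silenced HT29 libraries, siPOLR1D2 replicate 1 stood apart by its POMP level of 19936, against 15770 to 16189 in the other libraries.

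The response differed between the siRNAs in SW480 for CDX2, by a log2 difference of 1.72 (siPOLR1D3 minus siPOLR1D2), and for USP12, by -0.65. Both were found by the direct contrast of the siRNAs and were lost with the side of the principal component as a covariate. All siPOLR1D3 libraries and siPOLR1D2 replicate 3 lay on side 2, and the other siPOLR1D2 libraries on side 1.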

How the results depend on the processing

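Between the cell lines, USP12, MTIF3, LNX2, PAN3 and POMP were called higher in HT29 in every one of 24 settings, the reported one included. WASF3 and CDX2 were called lower in each of them. As these genes passed the filter only through the SW480 libraries, this is a description. The number of members called ranged from 7 to 9. With the values as deposited, without joint rescaling, the members' median log2 difference was 0.59 in place of 0.92. CDK8 was called with these values (-0.74, adjusted p = 0.0186) and after quantile normalization (-0.57, adjusted p = 0.0361, limma). Upper quartile or quantile scaling turned PAN3 in SW480 silencing to 0.039 and 0.044, and quantile scaling turned RASL11A in HT29 silencing to -0.019.

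Same-numbered libraries were not taken as pairs, as the correlations of their deviations ranged from -0.17 to 0.04 in HT29 and from -0.60 to 0.39 in SW480, and the labels name no shared day or culture. With the replicate block, 735 genes were called in HT29 silencing, 0 in SW480 and 45 in the difference between them, and 0 members in each. LNX2 (-0.021), POMP (-0.094) and SLC46A3 (0.47) then changed sign in SW480. POLR1D was called in HT29 (-0.80, adjusted p = 0.0404) and not in SW480 (-1.17, adjusted p = 0.0865, limma).

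For silencing, both cell lines in 1 fit gave 2 genes called in HT29, against 0. In SW480, 1011 genes were called, 666 without a filter, 1993 with the side as a covariate, 0 within side 1 and 1896 within side 2. Signs turned for CDK8 with the covariate (0.029) and within side 1 (0.23), as did MTIF3 (0.066), CDX2 (-0.53) and PAN3 (0.04) within side 1. For the difference between the cell lines, 10 genes were called with quantile scaling, 17 and 1 member (CDX2) with a pseudocount of 0.1, and 2 without a trend, against 5 genes.

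The alternatives by side for single siRNAs were chosen after seeing the data. For siPOLR1D2 in SW480 (1225 genes, 1 member), the siRNA and SCR alone gave 582 genes and 0 members, and the SCR libraries of side 1 gave 0 genes and 0 members (RASL11A 0.066). The covariate gave 2241 genes and 2 members (RASL11A 0.011, MTIF3 -0.045). For siPOLR1D3 (992 genes, 1 member), the SCR libraries of side 2 gave 3059 genes and 2 members (WASF3 0.14, LNX2 0.12, POMP 0.030, SLC46A3 -0.57), and the covariate turned WASF3 (0.15), LNX2 (0.15) and SLC46A3 (-0.51). Between the siRNAs (498 genes, 2 members), those libraries alone gave 1215 genes and 4 members, and the covariate gave 213 genes and 0 members (POLR1D 0.068). The cause of these shifts was not tested.

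Leaving out each library in turn, genes called ranged from 0 to 1 in HT29 silencing, 534 to 1283 in SW480 silencing, 0 to 23 in the difference between them, 0 to 2 for siPOLR1D3 in HT29, 448 to 1825 for siPOLR1D2 and 118 to 1358 for siPOLR1D3 in SW480, and 39 to 791 between the siRNAs there. Members called ranged from 0 to 2 for each siRNA in SW480 and 0 to 3 between them. Signs turned for uncalled changes near 0. In pooled silencing these were USP12 (-0.016 to 0.14), PAN3 (-0.073 to 0.084) and SLC46A3 (-0.044 to 0.73) in HT29 and CDK8 (-0.31 to 0.010) and PAN3 (-0.060 to 0.025) in SW480. With siPOLR1D2 they were RASL11A (-0.012 to 0.24), PAN3 (-0.12 to 0.035) and SLC46A3 (-0.63 to 0.33) in HT29 and USP12 (-0.15 to 0.044), RASL11A (-0.29 to 0.13) and MTIF3 (-0.095 to 0.28) in SW480. With siPOLR1D3 in HT29 they were USP12 (-0.13 to 0.027), RASL11A (-0.093 to 0.30), PAN3 (-0.025 to 0.13) and POMP (-0.030 to 0.067). Between the siRNAs they were RASL11A (-0.21 to 0.19), MTIF3 (-0.20 to 0.17), LNX2 (-0.062 to 0.044) and POMP (-0.32 to 0.00030) in HT29 and POLR1D (-0.22 to 0.072) in SW480.

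Of 567 comparisons of a single gene under settings other than leaving out a library, 525 kept their direction and side of the threshold, 7 lost a call, 13 gained one and 22 changed sign, 0 of them called. The number of reads behind low values is unknown, which limits RASL11A, SLC46A3 and the HT29 levels of WASF3 and CDX2.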

Other observations

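KRT20, the keratin of differentiated intestinal epithelium, was measured as an epithelial marker and is described because of its values. In SW480 it was between 1.73 and 11.2 in SCR and between 20.7 and 94.6 after silencing, so that all silenced libraries were above all SCR libraries, as in 1.68% of the genes tested. KRT20 passed the filter on low values only through the silenced libraries and is named for its values, so that its tests are a description. With SCR levels this low, the size depends on the pseudocount. On the log2(value + 1) scale the change was 2.74 (SE 0.48, adjusted p = 0.00698, limma). KRT20 was called with siPOLR1D2 (3.16, adjusted p = 0.007) and with siPOLR1D3 (2.33, adjusted p = 0.0328), both from limma. With the side as a covariate, a setting with more genes called than the main one, the change was 2.78 (adjusted p = 0.00352, limma). In HT29, where its SCR mean was 2169, the change was -0.16 (SE 0.27, adjusted p = 0.827, limma). The other epithelial markers (EPCAM, KRT8, KRT18, CDH1 and VIL1) were not called in SW480 silencing. Their log2 changes there were between 0.04 and 0.17 (adjusted p 0.570 to 0.904, limma).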
